A study of Mus musculus with 6 samples.

Results

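The renal genes that move calcium and magnesium along the distal nephron, and those that make, break down and read active vitamin D, were examined in mouse kidneys with fibrosis driven by TGF-β1. The set was a fixed list of 10 gene symbols, chosen with earlier results of these data known. Its members were the probe sets that the array annotation gives to exactly 1 of these symbols. All 10 genes were found, on 144 of 241576 probe sets, and each gene's probe sets were combined into 1 of 20416 gene values. The CBAxB6-TGFbeta group (replicates 4, 5 and 6) carries a background of CBA and B6 and the word KO in its genotype label. The B6-TGFbeta group (replicates 1, 2 and 3) carries the B6 background and the word WT. Each group held 3 arrays, 1 per kidney sample as labelled, and both groups share the TGF-β transgene named in the labels and an induced fibrosis as disease state. No age or sex is given beyond a statement of matched littermates, no gene is named for the word KO, and the promoter of the transgene is not given in the sources used here. The words KO and WT go with the background on all 6 arrays, so a difference by genotype and one by background cannot be told apart. No array without TGF-β was part of the design, so a group difference that was there before fibrosis and one that came with it cannot be told apart.

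Most filtered calcium and magnesium is reabsorbed upstream, but the distal convoluted and connecting tubules take up the final part through a regulated transcellular route. Calcium enters through the channel TRPV5, is carried through the cell by calbindins and leaves through the exchanger NCX1 and a calcium pump, whereas magnesium enters through the channel TRPM6. Vitamin D is activated in the proximal tubule by CYP27B1, is degraded by CYP24A1, and acts through the nuclear receptor VDR, which raises transcription of Cyp24a1 and of calcium transport genes.

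Promoter windows are shown first for genes of the set in which one of the searched motifs was present. The windows come from RefSeq (build GRCm38.p6), run from 250 bases before to 50 bases after an annotated start and are printed in the direction of transcription. The sources used here gave 9 such windows for 8 of the genes, namely Trpv5, Slc8a1, Pvalb, Casr, Trpm6, Cnnm2, Vdr and Cyp27b1, with a pair of starts for Pvalb. They gave no window for Calb1 or Cyp24a1, so no motif was searched in these genes. The motif GCCNNNGGC, bound by AP-2 factors such as TFAP2B, a regulator of the distal convoluted tubule, occurred in both Pvalb windows and in the Trpm6 window. It stood in 3 of the 9 windows and in 16.6% of all 32851 windows, and it is marked in capitals in the first 3 sequences. The matches began at position -164 and -81 in the Pvalb windows and at -68 in the Trpm6 window, counted from -1 for the base before the start. The GC box GGGCGG, searched on both strands, occurred 3 times in the Vdr window, where capitals mark it, once in the Cnnm2 window and in 35.7% of all windows.
Pvalb window 1, chr15:78204188-78204487, minus strand: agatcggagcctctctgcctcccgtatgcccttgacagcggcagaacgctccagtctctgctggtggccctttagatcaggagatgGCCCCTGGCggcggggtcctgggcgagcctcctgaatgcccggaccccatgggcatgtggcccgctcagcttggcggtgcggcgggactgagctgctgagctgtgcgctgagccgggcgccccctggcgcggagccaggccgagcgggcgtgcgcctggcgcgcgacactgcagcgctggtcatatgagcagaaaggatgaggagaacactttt
Pvalb window 2, chr15:78206351-78206650, minus strand: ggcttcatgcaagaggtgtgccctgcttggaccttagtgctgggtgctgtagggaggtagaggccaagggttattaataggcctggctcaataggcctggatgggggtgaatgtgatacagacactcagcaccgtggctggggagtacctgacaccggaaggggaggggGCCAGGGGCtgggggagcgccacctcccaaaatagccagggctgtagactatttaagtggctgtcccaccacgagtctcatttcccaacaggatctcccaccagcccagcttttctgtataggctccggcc
Trpm6 window, chr19:18749480-18749779, plus strand: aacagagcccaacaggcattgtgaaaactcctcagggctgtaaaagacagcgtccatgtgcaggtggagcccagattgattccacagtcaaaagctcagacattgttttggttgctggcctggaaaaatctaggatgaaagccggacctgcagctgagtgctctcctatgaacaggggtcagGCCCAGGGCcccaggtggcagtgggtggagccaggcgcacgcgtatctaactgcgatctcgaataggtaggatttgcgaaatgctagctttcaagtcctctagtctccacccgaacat
Vdr window, chr15:97908247-97908546, minus strand: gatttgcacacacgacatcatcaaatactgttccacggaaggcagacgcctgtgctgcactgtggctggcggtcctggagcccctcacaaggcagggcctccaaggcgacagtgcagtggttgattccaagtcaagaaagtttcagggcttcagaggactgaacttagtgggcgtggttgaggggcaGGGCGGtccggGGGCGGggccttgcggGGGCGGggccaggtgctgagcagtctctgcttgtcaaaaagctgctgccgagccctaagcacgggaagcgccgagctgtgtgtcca
The nuclear receptor core motif AGGTCA was in none of the 9 windows and in 16.3% of all windows, and the vitamin D response element, a direct repeat with a spacer of 3 bases, was in none of the 9 and in 0.256% of all. A match describes the letters of a window, and an absent match describes only this window.

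Gene values are log2 intensities, and differences are CBAxB6-TGFbeta minus B6-TGFbeta on that scale. A gene passed when its adjusted p in limma, Benjamini-Hochberg adjusted over all genes, was under 0.05. Array medians lay between 7.27 and 7.34, and Pearson correlations of array pairs across probe sets were 0.953 to 0.963 for CBAxB6-TGFbeta, 0.965 to 0.971 for B6-TGFbeta and 0.946 to 0.954 for pairs from different groups. Kidney markers were present on every array, with Umod, the thick limb protein uromodulin, at 11.95 to 12.12 in CBAxB6-TGFbeta and 12.17 to 12.27 in B6-TGFbeta. B6-TGFbeta replicate 2 stood apart in markers of neighbouring tissue. Its mean over 10 adrenal genes was 8.30, against 5.65 to 5.77 in CBAxB6-TGFbeta and 6.34 and 5.75 in the other B6-TGFbeta arrays, and its mean over 8 brown fat genes was 8.56, against 6.19 to 6.89 in CBAxB6-TGFbeta and 6.20 and 6.01 in the other B6-TGFbeta arrays. Chgb, a chromaffin granule gene of the adrenal medulla, was at 11.21 in this array and at 5.80 to 6.32 in the other 5, and the brown fat uncoupling gene Ucp1 at 10.93 and 5.13 to 6.22. The adrenal steroid gene Star, chosen after its values were seen, was also high in B6-TGFbeta replicate 1, at 8.89. The counts of passing genes are therefore also given without replicate 2.

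Of the 10 genes, Calb1, Pvalb, Casr and Vdr passed, all 4 lower in CBAxB6-TGFbeta, and the other 6 did not pass. Among all genes 4.62% were called lower, 3.17% higher and 7.79% in either direction. The fitted difference was below 0 in 10 of the 10 genes, with a median of -0.55, against a median of 0.02 over all genes. The groups did not overlap in 6 of the 10 genes (Calb1, Slc8a1, Pvalb, Casr, Trpm6 and Vdr), beside 26.7% of all genes. Because the 10 genes were chosen with earlier results of these data known, these comparisons with all genes are not an independent test. Without B6-TGFbeta replicate 2, the same 4 genes and Cyp27b1 passed. Without B6-TGFbeta replicate 1, only Calb1 passed, and Pvalb, Casr and Vdr missed the threshold. In whole kidney RNA, fewer cells of a type and less RNA per cell cannot be told apart.

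**Figure D1:**
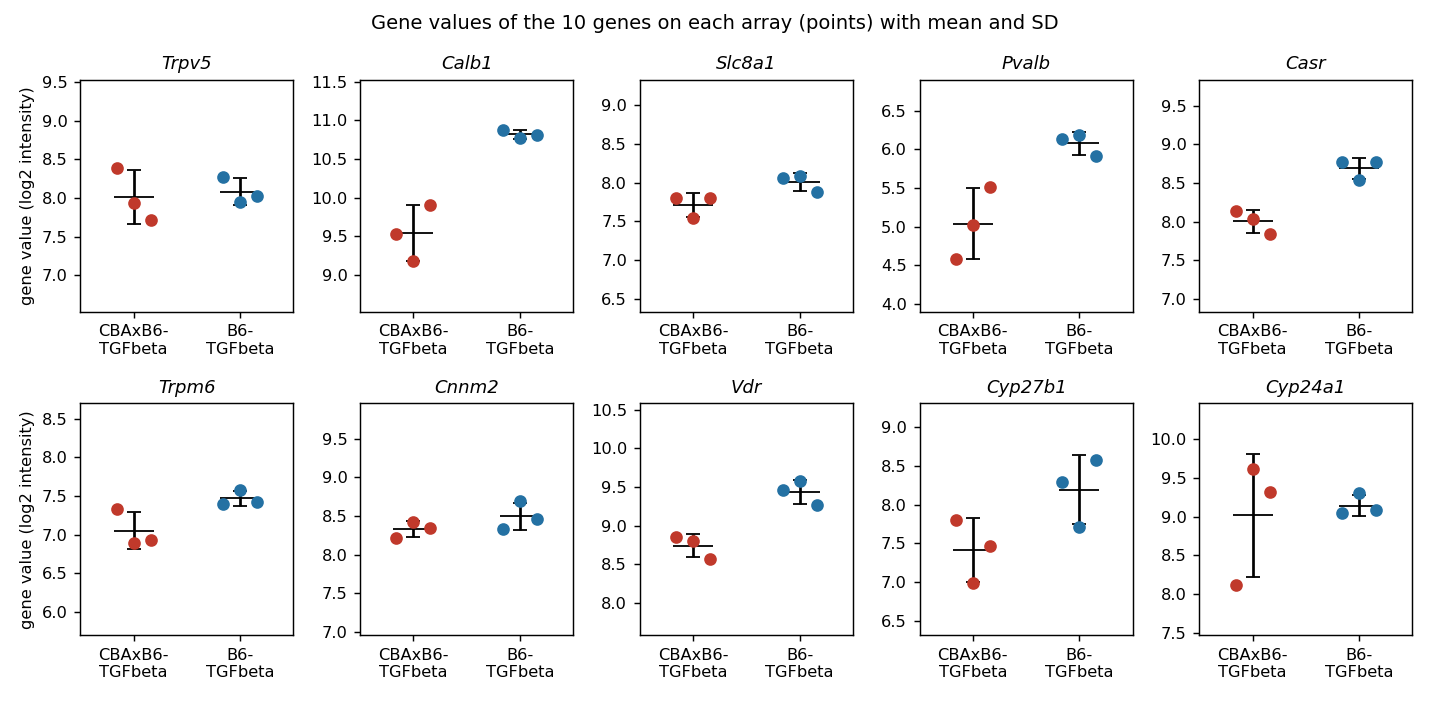
Gene values (log2 intensity) of the 10 genes, with 1 point per array, a bar for the mean and an error bar for the SD over 3 arrays, CBAxB6-TGFbeta in red and B6-TGFbeta in blue. Each panel spans 3 log2 units, and the groups lie apart in Calb1, Slc8a1, Pvalb, Casr, Trpm6 and Vdr.

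Calbindin carried the largest difference among the 10 gene values, although on the brightest probe set alone Cyp27b1 (-1.48) and without the dimmer 50% of probe sets Pvalb (-1.37) exceeded it. Calb1, which encodes calbindin-D28k, the calcium buffer of the distal convoluted and connecting tubules, had gene values of 9.53, 9.18 and 9.91 in CBAxB6-TGFbeta replicates 4, 5 and 6, against 10.88, 10.77 and 10.81 in B6-TGFbeta replicates 1, 2 and 3. The 3 CBAxB6-TGFbeta arrays lay lower and further apart (SD 0.37) than the 3 B6-TGFbeta arrays (SD 0.05). The log2 difference was -1.28 (SE 0.16, 95% interval -1.65 to -0.91, limma adjusted p 0.00214), so that the intensity in CBAxB6-TGFbeta was 0.412 of that in B6-TGFbeta. All 14 Calb1 probe sets were lower, from -1.81 to -0.16. The groups did not overlap in 12 of them, beside 10.5% of all probe sets that were lower without overlap. In a fit over all probe sets, 6 passed on their own, and 0.299% of all probe sets were called lower. The smallest difference, -0.16, was that of probe set 10503417, which averaged 9.56 ± 0.38 in CBAxB6-TGFbeta and 9.72 ± 0.30 in B6-TGFbeta (SD, n = 3 each), while the other 13 lay between -1.81 and -1.10. With any 1 array left out, the difference stayed between -1.46 and -1.10 and passed each time. With gene values recomputed from the 5 arrays kept, a choice made after seeing the data, it passed in limma only without CBAxB6-TGFbeta replicate 6 (adjusted p 0.0203), and the adjusted p was 0.0570 to 0.119 in the other 5 fits. Median polish on 5 arrays leaves many genes without variance, a limit of these recomputed fits.

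Parvalbumin is a second calcium buffer, found in the early distal convoluted tubule and also in fast skeletal muscle. Pvalb had gene values of 4.58, 5.02 and 5.51 in CBAxB6-TGFbeta and 6.13, 6.19 and 5.91 in B6-TGFbeta, with no overlap. Its log2 difference was -1.04 (SE 0.20, 95% interval -1.49 to -0.58, limma adjusted p 0.0149). The gene lay among the 25% of genes with the lowest mean and rested on 4 probe sets. Of these, 3 were lower without overlap (-1.68, -1.07 and -1.31), beside 10.5% of all probe sets, and none of them passed over all probe sets. The fourth, 10430301, stood at 4.44 to 5.11 in CBAxB6-TGFbeta and 4.13 to 4.96 in B6-TGFbeta, a difference of 0.21. Pvalb missed the threshold in limma without B6-TGFbeta replicate 1 (adjusted p 0.0702), without CBAxB6-TGFbeta replicate 5 (0.0547) and on its brightest probe set alone (0.0679). Of 10 skeletal muscle markers, none passed in limma and 1 was under 0.05 unadjusted. Their mean level was 6.11 to 6.13 in CBAxB6-TGFbeta and 5.98 to 6.20 in B6-TGFbeta.

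The entry and exit steps of calcium transport did not pass. Trpv5, the apical calcium channel, had gene values of 8.39, 7.94 and 7.71 in CBAxB6-TGFbeta and 8.28, 7.94 and 8.02 in B6-TGFbeta, and the groups overlapped. Its log2 difference was -0.07 (SE 0.17), with a 95% interval of -0.45 to 0.31 and an adjusted p of 0.871 in limma. Among its 17 probe sets, 10 were lower and 7 higher, and none passed in limma or was under 0.05 unadjusted. Slc8a1, which encodes the sodium-calcium exchanger NCX1 and is also expressed in muscle, had gene values of 7.81, 7.54 and 7.80 in CBAxB6-TGFbeta and 8.06, 8.09 and 7.88 in B6-TGFbeta. Here all 3 CBAxB6-TGFbeta arrays lay below the others, but by a small margin, with a log2 difference of -0.29 (SE 0.12, 95% interval -0.55 to -0.03, limma adjusted p 0.176). Of the 15 Slc8a1 probe sets, 11 were lower and 4 higher.

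The calcium-sensing receptor was lower. Casr, the G protein-coupled receptor that restrains calcium and magnesium uptake in the thick limb when plasma calcium is high, had gene values of 8.14, 8.04 and 7.85 in CBAxB6-TGFbeta and 8.77, 8.54 and 8.77 in B6-TGFbeta. The spread within each group was small (SD 0.15 and 0.13) beside the log2 difference of -0.68 (SE 0.12, 95% interval -0.95 to -0.42, limma adjusted p 0.00843), and the intensity in CBAxB6-TGFbeta was 0.623 of that in B6-TGFbeta. In 7 of 8 probe sets the groups did not overlap, with differences from -0.77 to -0.32, beside 10.5% of all probe sets that were lower without overlap. None of the 8 passed over all probe sets, although 6 were under 0.05 unadjusted. The eighth, 10439311, was at 6.12 to 6.40 in CBAxB6-TGFbeta and 5.65 to 6.36 in B6-TGFbeta. On its brightest probe set alone the Casr difference was -0.32 and did not pass (adjusted p 0.238), and without B6-TGFbeta replicate 1 the adjusted p was 0.0522.

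**Figure D2:**
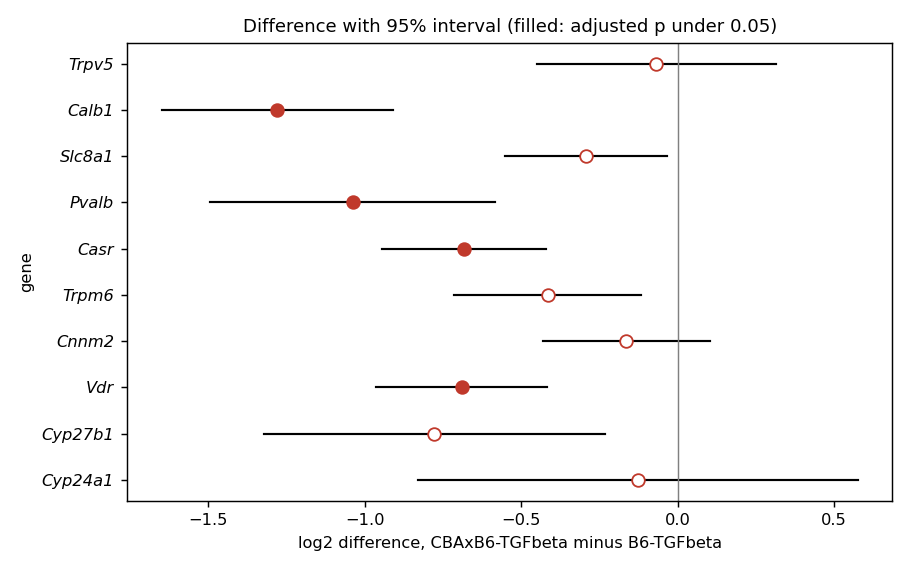
Log2 difference, CBAxB6-TGFbeta minus B6-TGFbeta, of each gene (point) with its 95% interval (line) from limma on 6 arrays. Filled points mark the 4 genes with an adjusted p under 0.05, and the intervals of Trpv5, Cnnm2 and Cyp24a1 span 0.

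The magnesium genes of the set did not pass. Trpm6, a channel fused to a protein kinase and the apical entry for magnesium in the distal convoluted tubule, had gene values of 7.33, 6.90 and 6.93 in CBAxB6-TGFbeta and 7.39, 7.58 and 7.43 in B6-TGFbeta. The groups did not overlap, but CBAxB6-TGFbeta replicate 4 lay close to the lowest B6-TGFbeta array, and the log2 difference of -0.42 (SE 0.13, 95% interval -0.71 to -0.12) had an adjusted p of 0.0971 in limma. Without CBAxB6-TGFbeta replicate 4 the difference was -0.55 and passed (adjusted p 0.0215). Trpm6 had 39 probe sets, of which 36 were lower and 3 higher. The largest decrease, -1.70 in probe set 10461936, came with overlapping groups, whereas probe set 10461956 passed, at 5.87, 5.79 and 6.01 in CBAxB6-TGFbeta and 7.27, 7.41 and 7.36 in B6-TGFbeta (log2 difference -1.46, SE 0.16, adjusted p 0.0299). Cnnm2, a basolateral membrane protein mutated in inherited magnesium wasting in people, had gene values of 8.22, 8.42 and 8.34 in CBAxB6-TGFbeta and 8.34, 8.69 and 8.45 in B6-TGFbeta, with overlap. Its log2 difference was -0.16 (SE 0.12, 95% interval -0.43 to 0.10, limma adjusted p 0.485), and 11 of its 13 probe sets were lower.

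The vitamin D receptor gene was lower, while both hydroxylase genes did not pass. Vdr had gene values of 8.86, 8.80 and 8.57 in CBAxB6-TGFbeta and 9.46, 9.57 and 9.27 in B6-TGFbeta, with a log2 difference of -0.69 (SE 0.12, 95% interval -0.96 to -0.42, limma adjusted p 0.00938). The groups did not overlap, and the intensity in CBAxB6-TGFbeta was 0.620 of that in B6-TGFbeta. Of its 12 probe sets, 8 were lower without overlap, beside 10.5% of all probe sets. Probe set 10432034 was higher without overlap, at 10.97, 11.07 and 11.10 in CBAxB6-TGFbeta and 10.88, 10.82 and 10.77 in B6-TGFbeta, a difference of 0.22 that did not pass (adjusted p 0.585). Without B6-TGFbeta replicate 1 the Vdr gene value missed the threshold (adjusted p 0.0522).

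Cyp27b1, the 1α-hydroxylase that makes active vitamin D, had gene values of 7.80, 6.98 and 7.47 in CBAxB6-TGFbeta and 8.29, 7.71 and 8.58 in B6-TGFbeta. The groups overlapped, since B6-TGFbeta replicate 2 lay below CBAxB6-TGFbeta replicate 4. The log2 difference of -0.78 (SE 0.24, 95% interval -1.32 to -0.23) had an adjusted p of 0.0893 in limma, and all 9 probe sets were lower, from -1.84 to -0.20. Without B6-TGFbeta replicate 2, the array with high adrenal and brown fat markers, the difference was -1.02 and passed (adjusted p 0.0311), and without CBAxB6-TGFbeta replicate 4 it was -0.97 and passed (adjusted p 0.0434). Cyp24a1, the 24-hydroxylase that inactivates vitamin D and a classical target of VDR, had gene values of 8.12, 9.62 and 9.31 in CBAxB6-TGFbeta and 9.05, 9.30 and 9.08 in B6-TGFbeta. CBAxB6-TGFbeta replicate 4 lay below every other array, and its group's SD was 0.79, against 0.14 in B6-TGFbeta. The log2 difference was -0.13 (SE 0.31, 95% interval -0.83 to 0.57, limma adjusted p 0.869), and without that array it turned to 0.32 (adjusted p 0.205). In all 13 Cyp24a1 probe sets the groups overlapped.

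Over the 144 probe sets of the 10 genes, 121 were lower and 23 higher in CBAxB6-TGFbeta, with a median difference of -0.36. The groups did not overlap in 44 probe sets, 43 of them lower, beside 20.4% of all probe sets in either direction and 10.5% lower. In the fit over all 241576 probe sets, 7 of the 144 passed, 6 in Calb1 and 1 in Trpm6, beside 0.535% of all, and no probe set of the 10 genes passed once any 1 array was left out (34 to 59 under 0.05 unadjusted), when 0 to 223 of all probe sets passed. No probe set of the 10 genes deviated from the median of the other probe sets of its gene in limma (0 of 144, with 11 under 0.05 unadjusted), and 0 did so (18 unadjusted) when the mean was used in place of the median. Among all 207383 probe sets tested in this way, 0% were called. Probe sets of 1 gene share their transcript and are not replicates of a condition.

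**Figure D3:**
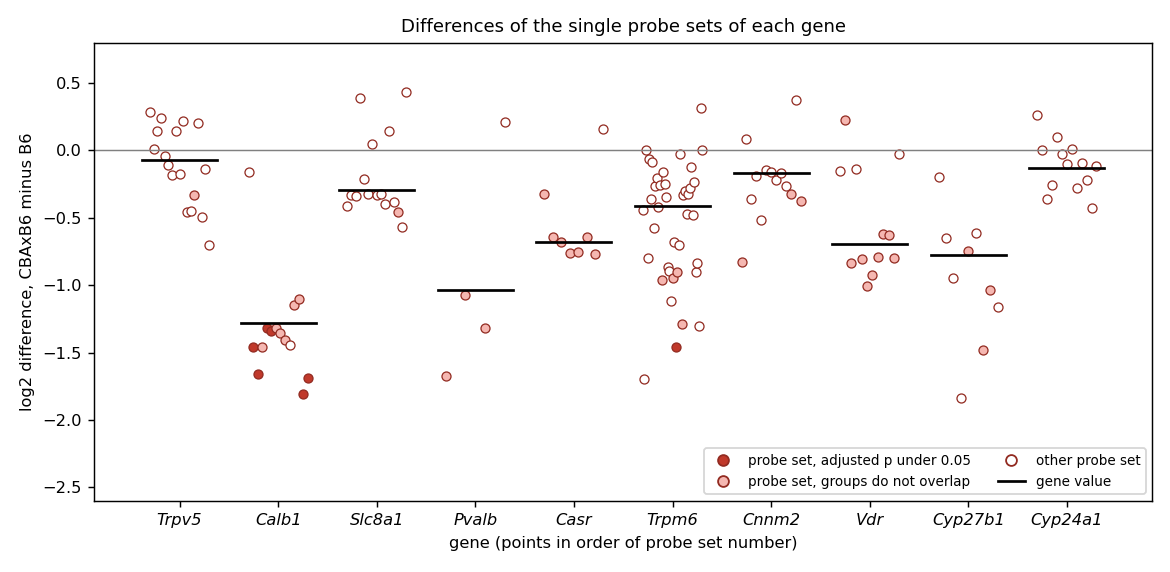
Log2 difference, CBAxB6-TGFbeta minus B6-TGFbeta, of each of the 144 probe sets, with a black line at the gene value. Dark points passed over all probe sets, pale points had groups that did not overlap, and the 14 Calb1 points lie below 0 throughout while the 17 Trpv5 points lie on both sides of it.

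Other genes of the same pathways were mixed in direction, apart from those of vitamin D. Of 14 measured calcium genes, 3 fell, 2 rose and 9 did not pass, with a median difference of 0.02. The 5 that passed became 4 without B6-TGFbeta replicate 2 and 3 without B6-TGFbeta replicate 3. S100g, the small calbindin-D9k of the distal tubule, had gene values of 9.61, 10.24 and 9.99 in CBAxB6-TGFbeta and 11.65, 11.53 and 11.67 in B6-TGFbeta, a log2 difference of -1.67 (SE 0.15, limma adjusted p 0.000443). Kl, which encodes Klotho, the FGF23 coreceptor that also acts on TRPV5, passed and fell by 1.12 on the log2 scale (SE 0.11), and the parathyroid hormone receptor gene Pth1r fell by 0.87 (SE 0.11). Anxa2 and S100a10, whose proteins form a complex that brings TRPV5 to the cell surface, rose by 0.82 (SE 0.16) and 0.55 (SE 0.14). The channel gene Trpv6, the closest relative of Trpv5 and named here after its value was seen, stood at 0.38 (SE 0.13) and did not pass (limma adjusted p 0.122).

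Of 21 measured magnesium genes, 4 fell, 1 rose and 16 did not pass, with a median difference of 0.00. The count of 5 was 3 without B6-TGFbeta replicate 2 or CBAxB6-TGFbeta replicate 4, and 2 without B6-TGFbeta replicate 1 or 3, without CBAxB6-TGFbeta replicate 5 or on the brightest probe set alone. Egf, whose product stimulates TRPM6, had gene values of 8.31, 9.01 and 9.74 in CBAxB6-TGFbeta and 11.90, 11.64 and 11.70 in B6-TGFbeta, a log2 difference of -2.73 (SE 0.29, limma adjusted p 0.000775). Fxyd2, the sodium pump subunit mutated in a human form of magnesium wasting, fell by 1.06 (SE 0.15). The tight junction gene Cldn10 fell by 0.61 (SE 0.13) and Pcbd1 fell by 0.54 (SE 0.12). In contrast, the phosphatase gene Ptp4a1, whose family binds CNNM proteins, rose by 0.76 (SE 0.16), a value that rested on 1 probe set. Trpm7, the ubiquitous relative of Trpm6 and named after its value was seen, stood at 0.02 (SE 0.12, limma adjusted p 0.939).

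Of 15 measured vitamin D genes, 3 fell, none rose and 12 did not pass. The median difference was -0.16 and 14 of the 15 fitted differences were below 0. In limma 2 passed without B6-TGFbeta replicate 2, 0 without B6-TGFbeta replicate 1 (5 under 0.05 unadjusted) and 0 on the brightest probe set alone (2 unadjusted). The genes that fell were Cubn (-0.91, SE 0.16) and Lrp2 (-0.75, SE 0.14), which encode the endocytic receptors cubilin and megalin that retrieve vitamin D with its binding protein in the proximal tubule, and the 25-hydroxylase Cyp2r1 (-0.54, SE 0.14), a liver enzyme, at a low level of 4.84 in CBAxB6-TGFbeta and 5.38 in B6-TGFbeta. Together the 3 lists held 50 measured genes apart from the set, of which 10 fell, 3 rose and 37 did not pass.

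**Figure D4:**
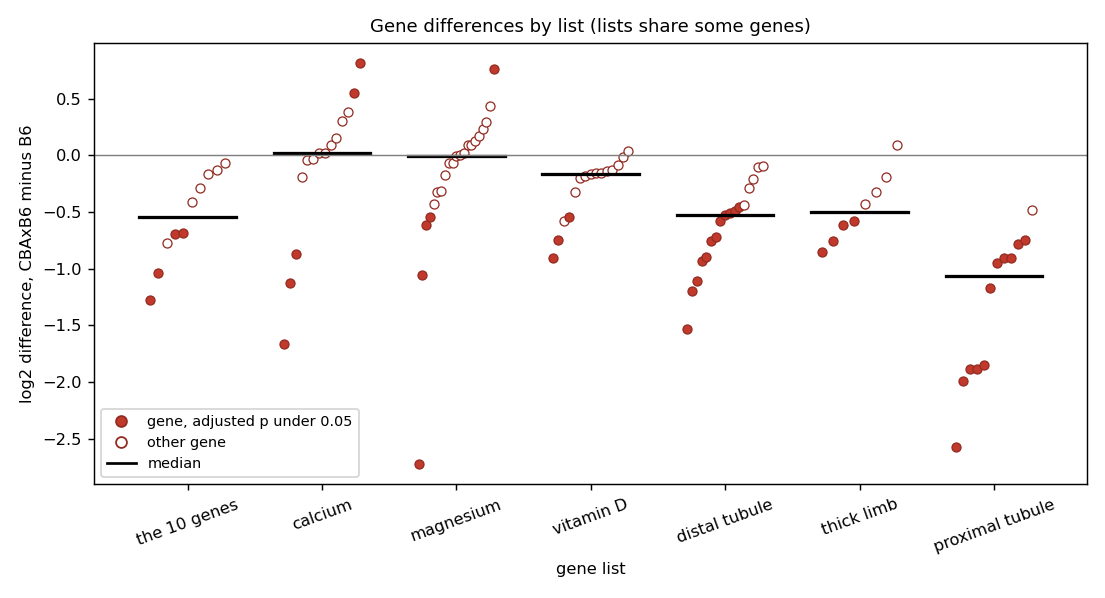
Log2 difference, CBAxB6-TGFbeta minus B6-TGFbeta, of each gene of the set, of 3 pathway lists and of 3 tubule segment lists, with a black line at the median and filled points for genes with an adjusted p under 0.05. The medians are -0.55 for the 10 genes, 0.02, 0.00 and -0.16 for the pathway lists and -0.53, -0.50 and -1.06 for the segment lists.

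Fitted differences of the segment markers were below 0, except for 1 thick limb gene (0.09, SE 0.18) that did not pass. Of 17 distal tubule genes 12 fell, none rose, and the median difference was -0.53. The count was 4 without B6-TGFbeta replicate 1, 8 without replicate 2 or 3, and 5 on the brightest probe set alone. Those with the smallest p were the thiazide-sensitive cotransporter Slc12a3 (-1.54, SE 0.17), the inhibitor of protein phosphatases encoded by Ppp1r1a (-1.20, SE 0.13) and Kcnj10, a basolateral potassium channel (-0.93, SE 0.11). The AP-2 gene Tfap2b, listed as Tcfap2b on the array and chosen after its value was seen, was at -0.53 (SE 0.11, limma adjusted p 0.0170). Of 8 thick limb genes 4 fell, none rose, and the median difference was -0.50. The count was 1 without B6-TGFbeta replicate 1 or on the brightest probe set alone, 2 without CBAxB6-TGFbeta replicate 5 and 3 without B6-TGFbeta replicate 2. They included the cotransporter Slc12a1 (-0.85, SE 0.12), the potassium channel Kcnj1 (-0.76, SE 0.13) and the chloride channel subunit Bsnd (-0.58, SE 0.11), of which Kcnj1 and Bsnd also stand in the distal list. Of 12 proximal tubule genes, Lrp2 and Cubn included, 11 fell, none rose, and the median difference was -1.06. Without B6-TGFbeta replicate 2 the count was 11, and on the brightest probe set alone it was 7. Those with the smallest p were the phosphate transporter Slc34a1 (-1.88, SE 0.13), the dicarboxylate transporter Slc13a3 (-1.85, SE 0.16) and the oxygenase Miox (-2.57, SE 0.25).

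Each gene was also set against the mean of the 17 distal tubule genes on the same array, a measure chosen after seeing the data. That mean was 8.56 in CBAxB6-TGFbeta and 9.20 in B6-TGFbeta, a difference of -0.64. It averages unlike genes, whose log2 differences ran from -1.54 (Slc12a3) to -0.09 (Emx1). The Calb1 difference of -1.28 lay within that range. Relative to it, Calb1 stood at 0.98, 0.59 and 1.36 in CBAxB6-TGFbeta and at 1.60, 1.62 and 1.64 in B6-TGFbeta, a relative difference of -0.64 with no overlap of the groups. Casr and Vdr had relative differences of -0.05 and -0.05, with overlapping groups. Trpv5, Cnnm2 and Slc8a1 had positive relative differences of 0.57, 0.47 and 0.35, again without overlap. Because the reference mean itself differed by -0.64, a gene with no difference of its own is positive on this measure. The share of all genes without overlap on this measure was not computed. The exact permutation p, two-sided, was 0.1 for Calb1, Trpv5, Cnnm2 and Slc8a1, which is the smallest that 3 against 3 arrays allow, and 0.3 to 0.8 for the other 6 genes.

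Macrophage and tubular injury markers were higher in CBAxB6-TGFbeta, while few or none of the other marker lists passed. Without B6-TGFbeta replicate 2, 6 macrophage, 5 injury, 1 smooth muscle, 0 T cell (2 unadjusted) and 1 brown fat gene passed in limma. Of 10 macrophage genes 7 rose and none fell. Ccr2, a chemokine receptor of monocytes, was at 10.37, 9.28 and 10.51 in CBAxB6-TGFbeta and 7.49, 7.94 and 7.75 in B6-TGFbeta. The list had a mean level of 8.30 to 8.90 in CBAxB6-TGFbeta and 7.29 to 7.62 in B6-TGFbeta, and macrophages can also express Vdr and Cyp27b1. Of 8 tubular injury genes 6 rose and none fell, at a mean level of 9.27 to 9.86 in CBAxB6-TGFbeta and 7.75 to 7.93 in B6-TGFbeta. Of 6 smooth muscle genes, which mark cells that also express Slc8a1, 1 rose and 5 did not pass (0 passed without B6-TGFbeta replicate 1, 3 unadjusted, and 3 without CBAxB6-TGFbeta replicate 6), at 8.54 to 9.15 in CBAxB6-TGFbeta and 8.36 to 8.63 in B6-TGFbeta. Of 6 T cell genes, 1 rose (Cd2, a lymphocyte adhesion receptor) and 5 did not pass. The call was lost without any 1 array other than CBAxB6-TGFbeta replicate 6, and the mean level was 5.87 to 6.01 in CBAxB6-TGFbeta and 5.80 to 5.87 in B6-TGFbeta. Of 3 measured parathyroid and thyroid genes, tissues in which Casr is abundant, none passed in limma or was under 0.05 unadjusted, at 4.96 to 5.20 in CBAxB6-TGFbeta and 5.05 to 5.32 in B6-TGFbeta. Of the 10 adrenal genes none passed in limma and 2 were under 0.05 unadjusted (2 passed without B6-TGFbeta replicate 3), and of the 8 brown fat genes none passed or was under 0.05 unadjusted. The part of these cells in the differences of the 10 genes was not tested.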

How the data were processed

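Expression was measured on 6 Affymetrix arrays, 1 per kidney RNA sample. The authors deposited log2 intensities, 1 per probe set and array. Per the submitters' processing notes, RMA (background correction, normalization and probe summary) and the program Partek were used. No version, setting or genome build is given in the sources used here. Of 241576 probe sets, 212097 had 1 symbol, 4475 several and 25004 none in the platform annotation. Probe sets with 1 symbol were combined into 20416 gene values by Tukey's median polish.

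Groups were compared with limma 3.58.1 in R 4.3.3 (1 group term, moderated variances, two-sided p, Benjamini-Hochberg adjustment over all genes or all probe sets, threshold 0.05). Values are means ± SD over 3 arrays where given, errors of differences are standard errors, and precision is limited by having 3 arrays in a group. Whether samples are separate animals is not stated outright, so p-values measure the spread between these samples.

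The 10 genes and the 14 lists (158 entries, 148 measured) were chosen with earlier results of these data known. All 10 genes are named. From the calcium, magnesium and vitamin D lists up to 6 passing genes with the smallest p are named, from each segment list up to 3, and from a marker list the gene with the widest range. Star, Umod, Tfap2b, Trpv6 and Trpm7 lie outside this rule.

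In a test on simulated data for this contrast (20416 genes), limma recovered 94.1% and 100% of genes changed by -1 and 1, and 36.4% and 48.5% of genes changed by -0.5 and 0.5. Over 241576 probe sets it recovered 50% and 44% of those changed by -2 and 2 and 0% at -1 and 1, and the test of deviating probe sets recovered 24% and 38% at -2 and 2 and 0% at -1 and 1, over 207383 probe sets. Alternatives were other normalizations, gene summaries, filters, variance models, array weights and left-out arrays.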

Additional observations from a re-analysis of the deposited data

How the results depend on the processing

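Calb1, Pvalb, Casr and Vdr were lower in CBAxB6-TGFbeta under every alternative run, and 4 genes of the set passed, as with the full data, under repeated quantile normalization, median centring, the mean of probe sets, removal of the dimmer 50% of probe sets, and trended or robust moderation; array weights gave 6, and removal of the dimmest 25% of genes, which takes out Pvalb, gave 3. The brightest probe set alone gave 2 of the set, 617 genes in all (282 lower, 335 higher) and 6 of the 50 pathway genes. A linear model without moderation left no list with a passing gene except 2 injury genes (14 distal, 6 thick limb and 11 proximal tubule genes unadjusted). It gave 0 of the set (4 under 0.05 unadjusted), 41 genes in all, 0 pathway genes (19 unadjusted), 2 probe sets in all and 0 of the set's (38 unadjusted). With B6-TGFbeta reduced to replicate 3, assumed to vary like the other group, limma gave 0 of the set (5 unadjusted), 50 genes in all, 0 pathway genes (12 unadjusted), 0 probe sets in all (18957 unadjusted) and 0 of the set's (28 unadjusted). Probe sets passing numbered 1292 with the full data, 2829 without the dimmest 25%, 1964 with array weights, and 4552 with trended variances, when 17 of the set's passed.

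When arrays were left out singly, 1 to 6 genes of the set, 538 to 1575 of all genes and 6 to 13 pathway genes passed, with the 1 in the fit without B6-TGFbeta replicate 1; probe sets passing numbered 0 to 223, with 0 of the set's passing and 0 deviating. Median polish repeated on the 5 arrays kept, a choice made after seeing the data, gave 0 to 3 of the set (4 to 6 unadjusted), 63, 89 and 65 of all genes without B6-TGFbeta replicates 1, 2 and 3, 268, 117 and 605 without CBAxB6-TGFbeta replicates 4, 5 and 6, and 0 to 8 pathway genes (15 to 20 unadjusted; 4, 2 and 8 without CBAxB6-TGFbeta replicates 4, 5 and 6, otherwise 0); the 3 (Calb1, Pvalb and Vdr) came without CBAxB6-TGFbeta replicate 6, and Calb1 then ranged from -1.47 to -1.13. Differences that did not pass turned positive for Trpv5 on the brightest probe set (0.24), without the dimmer 50% of probe sets (0.000554), and without B6-TGFbeta replicate 1 (0.030, or 0.026 repolished) or CBAxB6-TGFbeta replicate 6 (0.083, or 0.055 repolished), with -0.26 to 0.083 when single arrays were left out; for Cyp24a1 with array weights (0.10) and without CBAxB6-TGFbeta replicate 4 (0.32, or 0.28 repolished), with -0.43 to 0.32 when single arrays were left out; and for Slc8a1 without CBAxB6-TGFbeta replicate 5 (0.00798 repolished). The cause was not tested. No paired analysis was run, because the labels do not say which arrays of the groups, if any, belong together.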
